A study of Mus musculus with 4 samples.

Results

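The genes described here encode the proteins of the cytosolic ribosome. Members were taken by gene symbol: Rpl or Rps followed by a number, with an optional a, x or l and an optional final digit or l, or Rplp0, Rplp1, Rplp2 and Rpsa, without symbols ending in -ps. This gave 90 of the 53379 genes in the files. Of these, 82 were treated as core members (34 of the small 40S subunit and 48 of the large 60S subunit), and 8 were paralogs, related genes that resemble a core member. Among the core members, 77 are annotated as protein-coding, and Rps12l1, Rps3a2, Rps3a3, Rpl6l and Rpl32l are annotated as processed pseudogenes. The paralogs Rpl3l, Rpl10l, Rpl39l and Rps4l are known or named as tissue-restricted copies and were kept apart, and Rpl7l1, Rpl22l1, Rpl36al and Rps27l are expressed broadly.

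RNA came from DKO741, 1 mouse embryonic stem cell line in which both alleles of Terc, the telomerase RNA gene, had been disrupted in E14 cells with the TR-10 construct, so that both groups lack Terc. Pre-ALT cells at PD100 (population doubling 100) and post-ALT cells at PD800, which maintain telomeres without telomerase by alternative lengthening of telomeres (ALT), gave 2 libraries each. The labels speak both of population doublings and of passages, and the cells were grown without feeders for extraction. The comparison asked which RNA levels differed between the cell population before telomere crisis and the stable survivors. DKO741 is 1 of 2 such lines, and the labels state that survivors arose rarely, so that a difference between PD100 and PD800 describes this line.

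A ribosome needs its proteins in equal numbers, with the acidic stalk proteins as the main exception, and growing cells such as embryonic stem cells spend much of their transcription on them. Mammalian ribosomal protein mRNAs are short, and most begin with a C followed by a run of C and T, the 5′ terminal oligopyrimidine (TOP) tract, through which TOR signalling and the RNA-binding protein Larp1 control their translation. The genome also holds many processed pseudogenes of these genes, which are intronless copies made by reverse transcription of their mRNAs.

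The depth was 32454121 to 38492149 expected counts per library. An expected count is RSEM's estimate of how many read pairs a gene gave, with reads of ambiguous origin split among the candidate genes. A floor of 3 counts corresponded to 0.0743 to 0.0934 CPM, where CPM stands for counts scaled to the library total with edgeR's TMM factors. This floor covers counting error only, while the 95% intervals of fold changes given below also include edgeR's estimate of the spread between libraries. Log2 CPM correlated at 0.984 between the PD100 libraries and at 0.992 between the PD800 libraries, across genes. Of the stem cell markers, all 10 were detected, and their summed level was 2122 to 2425 CPM in PD100 cells and 4083 to 4189 CPM in PD800 cells. Primitive endoderm markers (12 of 12 lower by edgeR's test) summed to 2691 to 3113 CPM in PD100 cells and 240 to 248 CPM in PD800 cells, where Foxa2 was at or under the floor. Fibroblast markers, of interest because feeder fibroblasts were used for maintenance, summed to 96.9 to 130 CPM and 38.3 to 39.0 CPM. In bulk RNA, fewer cells of a type and less RNA per cell cannot be told apart, and the part of these markers' change in the results below was not tested.

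Ribosomal protein genes were among the most strongly expressed genes and mostly had similar levels at PD100 and PD800. All 90 members passed the filter on low counts and were tested. Of the 82 core members, 2 rose in PD800 cells (Rpl36a and Rps21) and 2 fell, among them Rps12, which is 4.88% of them. Here and below, a gene rose or fell when its Benjamini-Hochberg adjusted p from the quasi-likelihood test of edgeR was under 0.01. Over all 19148 tested genes, 28.5% passed the same test, 13.1% with higher and 15.4% with lower levels in PD800 cells. Only Rpl36a and Rps12 also differed more than 2-fold among core members, against 15.1% of all tested genes (6.28% higher and 8.81% lower).

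The log2 fold changes of the core members, PD800 over PD100, had a median of 0.00, with quartiles of -0.19 and 0.13 and a range from -1.27 to 1.84. The median of all tested genes was 0.01. The median size of the log2 fold change, regardless of its sign, was 0.14 for core members and 0.45 for all tested genes. For 77 core members the 95% interval of the fold change lay within a 2-fold change in either direction, and for 61 it lay within 1.5-fold, so that for most members larger changes were outside the interval. High counts give narrow intervals, and for that reason other genes of the same TPM range were set beside them. By mean TPM over the 4 libraries, that range ran from 46.4 (Rpl29) to 1823 (Rpl41), with Rpl34 next above Rpl29 at 329. These other genes were therefore not matched to the members in level. Of the 953 other protein-coding genes within the TPM range of the protein-coding core members, 32.7% passed the test (196 higher and 116 lower), against 5.19% of the 77 protein-coding core members.

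**Figure D1:**
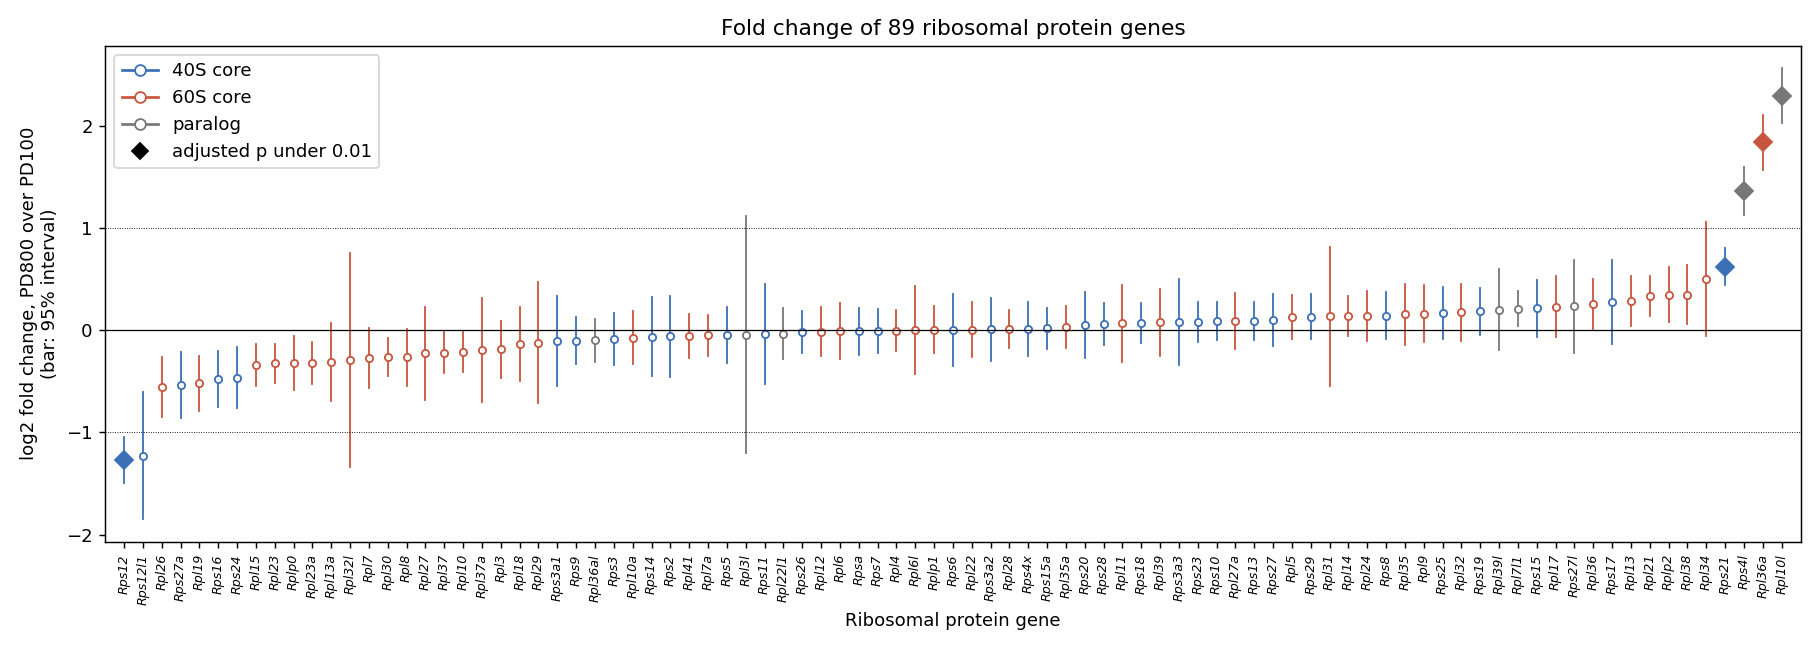
Log2 fold change (PD800 over PD100, y axis) of each of 89 ribosomal protein genes (x axis, in order of the change), with 95% intervals as bars, for 40S core members, 60S core members and paralogs. Filled diamonds mark the 5 of them at an adjusted p under 0.01: Rps12 lies at the low end, and Rps21, Rps4l, Rpl36a and Rpl10l at the high end, while most other members lie close to 0.

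Of the 34 core 40S members, 1 rose and 1 fell, with a median log2 fold change of 0.01 in CPM. Of the 48 core 60S members, 1 rose and 1 fell, with a median of -0.01. In mean TPM, 2 of the 40S members were higher and 32 lower in PD800 cells, and 7 of the 60S members were higher and 41 lower, beside 6467 higher and 12590 lower over all tested genes. The CPM values of the groups did not overlap for 20 core members that were higher in PD800 cells and 20 that were lower. Over all tested genes the groups did not overlap for 73.7% (37.4% higher and 36.3% lower), so that the 40 of 82 core members were below the background.

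The number of core members past the test depended on single libraries. Without PD100 replicate 1 it was 39, without PD100 replicate 2 it was 25, and without PD800 replicate 1 or 2 it was 2 or 3. With a PD100 library left out, the spread is estimated from the PD800 pair only. Without PD100 replicate 1 the share of core members past the test, 47.6%, was above that of all genes, 42.1%, whereas in the other 3 fits it was below: 30.5% against 38.9% without PD100 replicate 2, and 2.44% against 14.2% and 3.66% against 15.1% without PD800 replicate 1 and 2. Rpl36a and Rps12 passed in all of these fits. It also depended on the tool, since 14 core members (17.1%) passed with DESeq2, 3 higher and 11 lower, against 28.9% of all tested genes.

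Rps12 had the largest decrease. Rps12 (ENSMUSG00000061983.7), a 40S protein, lies at chr10:23785183-23787275 on the minus strand of GRCm38, and 3 snoRNA genes lie within its span. Its expected counts were 40915 and 37659 at PD100, against 15926 and 14305 at PD800. Scaled for depth this was 1014 and 1128 CPM, against 443 and 445 CPM. The groups were far apart, and the PD800 libraries were nearly equal. The mean fell from 1071 ± 81.1 to 444 ± 1.51 CPM (SD, n = 2 each), a log2 fold change of -1.27 ± 0.09 (SE) and a 2.41-fold lower level, with an adjusted p of 0.000229 in edgeR. In TPM, which also divides by transcript length, Rps12 went from 1975 and 1946 to 722 and 700. It was among the most abundant members in PD100 cells and near the median of the 77 protein-coding core members in PD800 cells (706 TPM).

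Rps12l1, an intronless gene that is 100% identical to the Rps12 transcript over 399 bases, was at 13.7 and 23.2 CPM at PD100 and 7.33 and 8.40 CPM at PD800. Its log2 fold change of -1.23 ± 0.25 (SE) narrowly missed the threshold, with an adjusted p of 0.0102 in edgeR, and it passed under 13 of 16 alternatives, DESeq2 among them. Since the sequences are the same, the division of reads between the pair is uncertain. The neighbours of Rps12 on chromosome 10 were lower as well: the median over the 40 nearest tested genes was -0.98 on the log2 scale, and 19 of them fell and 0 rose by the same test. Of the 40, 36 had a log2 fold change below 0.

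Rpl36a had the largest increase among core members. Rpl36a (ENSMUSG00000079435.9), a 60S protein close to the site where tRNAs leave the ribosome, is encoded on the X chromosome at chrX:134585654-134588062 on the plus strand. Its expected counts were 9903 and 9728 at PD100 but 34212 and 31081 at PD800. The levels were 245 and 291 CPM at PD100 and 952 and 967 CPM at PD800. The groups did not come near each other. The mean rose from 268 ± 32.6 to 960 ± 11.0 CPM (SD, n = 2 each), a log2 fold change of 1.84 ± 0.11 (SE) and a 3.58-fold higher level, with an adjusted p of 0.000124 in edgeR. In TPM it went from 578 and 587 to 1839 and 1768, which made it the most abundant core member in PD800 cells.

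The genes around Rpl36a rose with it. The 40 nearest tested genes span 2.66 Mb, with a median of 1.71 on the log2 scale, and 33 rose and 2 fell in edgeR's test. Gla, the next tested gene downstream, rose by 1.38 on the log2 scale, and Timm8a1, the next one upstream, by 1.75. Of the other X-linked members, Rps4x (log2 fold change 0.01), Rpl10 (-0.21) and Rpl39 (0.07) did not pass the test, with edgeR adjusted p of 0.938, 0.0773 and 0.684.

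Rps21 (ENSMUSG00000039001.12), a 40S protein gene at chr2:180257377-180258445 on the plus strand, ends 1.75 Mb before the last annotated base of chromosome 2. It was at 217 and 215 CPM in PD100 cells and at 334 and 329 CPM in PD800 cells. Both pairs of libraries were close, and the groups did not overlap. This is a log2 fold change of 0.62 ± 0.07 (SE), with an adjusted p of 0.00125 in edgeR. Its neighbours varied: of the 40 nearest tested genes 6 rose and 16 fell, with a median of -0.23. Cables2, the next tested gene downstream at a distance of 1.16 kb, rose by 0.53 ± 0.08 (SE) on the log2 scale, with an adjusted p of 0.0034 in edgeR. The call was lost on both TPM scales (limma's adjusted p was 0.10 and 0.098) and without PD800 replicate 1 or 2 (edgeR's was 0.0257 and 0.0189).

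**Figure D2:**
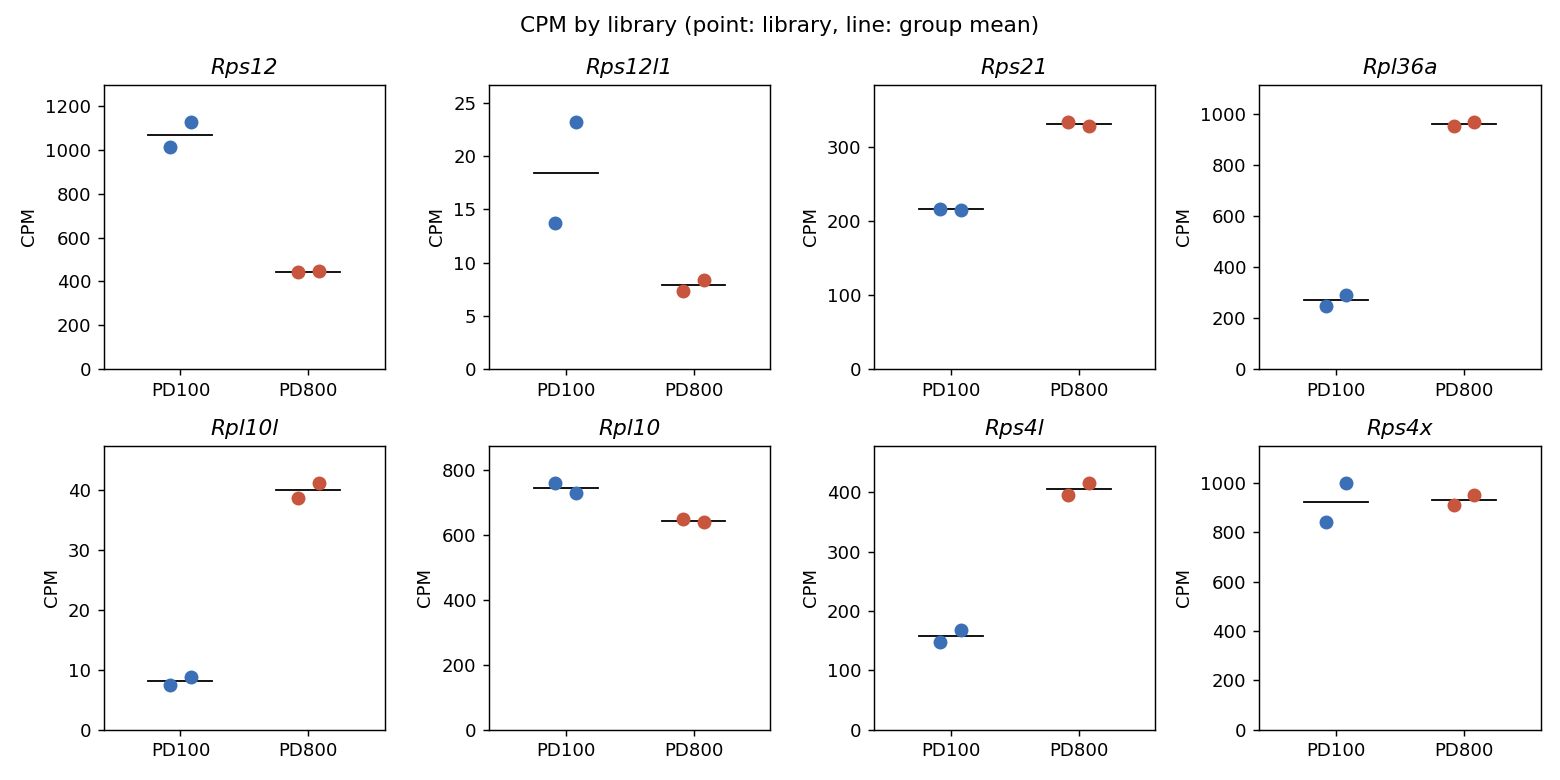
CPM (y axis, from 0, each panel with its own scale) of Rps12 with its copy Rps12l1, of Rps21 and Rpl36a, and of Rpl10l and Rps4l with their parent genes Rpl10 and Rps4x, in the PD100 and PD800 libraries. Points are libraries and lines are group means (n = 2 each); the groups are separated for Rps12, Rps12l1, Rps21, Rpl36a and both paralogs, while Rps4x overlaps and Rpl10 is slightly lower in PD800 cells.

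The paralog with the largest change was Rpl10l, an intronless autosomal copy of the X-linked Rpl10 that is known from the testis. Rpl10 itself joins the large subunit late in its assembly and is needed for subunit joining. Rpl10l (ENSMUSG00000060499.7) lies at chr12:66283379-66284401 on the minus strand, and its transcript is 84.3% identical to that of Rpl10 over 64.9% of its length. Its expected counts were 302 and 295 at PD100 and 1390 and 1323 at PD800, or 7.48 and 8.84 CPM against 38.7 and 41.2 CPM. With a log2 fold change of 2.29 ± 0.11 (SE) and an adjusted p of 7.12e-05 in edgeR, this was the largest change among the 90 members. Rpl10l made up 0.724% and 0.896% of the summed TPM of the pair at PD100, against 4.25% and 4.59% at PD800. Rpl10 went from 761 and 731 CPM to 650 and 639 CPM.

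The surroundings of Rpl10l had smaller values. Over the 40 nearest tested genes, spread over 6.39 Mb, the median was 0.13 on the log2 scale, and 0 of them had a larger rise than Rpl10l. The nearest tested gene, the processed pseudogene Gm2915 at a distance of 14.1 kb, came close, with a log2 fold change of 2.23 ± 0.41 (SE) and an adjusted p of 0.00679 in edgeR.

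Rps4l (ENSMUSG00000063171.4), at chr6:148354656-148355598 on the plus strand, is annotated as a transcribed processed pseudogene and is 79.7% identical to the transcript of Rps4x. It was at 148 and 169 CPM at PD100 and 396 and 416 CPM at PD800. Rps4l thus rose by 1.36 ± 0.09 (SE) on the log2 scale, with an adjusted p of 0.000203 in edgeR, while Rps4x stayed within 843 to 1001 CPM in the 4 libraries. The share of Rps4l in the summed TPM of the pair was 15.2% and 14.7% at PD100 and 30.8% and 31.0% at PD800. Rps4l ends 1.23 Mb before the last annotated base of chromosome 6 and lies within an intron of Tmtc1, which is read from the other strand and also rose (log2 fold change 1.20, edgeR adjusted p of 0.000863). No exon of Tmtc1 overlaps Rps4l in GENCODE M21, Tmtc1 had 136 to 378 counts, and the part of unspliced Tmtc1 RNA in the counts of Rps4l was not tested. The 40 nearest tested genes had a median of 0.93, with 21 that rose and 3 that fell.

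The remaining 6 paralogs passed neither the edgeR nor the DESeq2 test. Rpl3l, the form of Rpl3 found in heart and skeletal muscle, had 8 to 12 counts in the 4 libraries, and its log2 fold change of -0.04 had a 95% interval from -1.20 to 1.11, which includes a 2-fold change. Rpl39l, also known from the testis, was at 9.56 and 7.04 CPM at PD100 and 9.35 and 9.80 CPM at PD800. Rpl7l1 was 153 and 149 CPM at PD100 and 174 and 175 CPM at PD800, without overlap (log2 fold change 0.21, edgeR adjusted p of 0.0539). Rpl22l1 (log2 fold change -0.03), Rpl36al (-0.10) and Rps27l (0.23), the last of which is a p53 target, had overlapping groups. Because Rpl36a rose, the share of Rpl36al in the summed TPM of its pair was 35.6% and 34.5% at PD100 and 12.2% and 12.3% at PD800.

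Of the 3 stalk genes and 4 Mdm2-binding members, 0 passed the edgeR test, 2 of each set had an unadjusted p under 0.05, and 0 and 2 passed with DESeq2. Over all tested genes 53.3% had an unadjusted p under 0.05 and 28.9% passed with DESeq2. The P stalk, which recruits translation factors to the ribosome, is built from Rplp0 (log2 fold change -0.32), Rplp1 (0.00) and Rplp2 (0.35), and these 3 had adjusted p of 0.0519, 0.987 and 0.0437 in edgeR. Rpl5 (0.13) and Rpl11 (0.07), which bind 5S rRNA and can inhibit Mdm2, had log2 fold changes near 0. Rpl23 (-0.33, edgeR adjusted p of 0.0185) binds Mdm2 as well, and Rps27a (-0.54, edgeR adjusted p of 0.0189) is made as a fusion with ubiquitin. Rps6, the 40S target of S6 kinase, was at 934 and 1240 CPM at PD100 and 1058 and 1121 CPM at PD800, so that the PD800 values lay between the PD100 values. Rpsa, also known as a laminin receptor, was at 1485 and 1644 CPM and at 1527 and 1578 CPM.

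Some members lay just outside the threshold. Rpl26 (log2 fold change -0.56), Rpl19 (-0.52), Rps16 (-0.48) and Rps24 (-0.47) were lower in both PD800 libraries, with adjusted p from 0.0111 to 0.0232 in edgeR, and were singled out after their values had been seen. Rpl21 was the member closest to the threshold on the other side (0.33, edgeR adjusted p of 0.0178). All 5 passed with DESeq2, as 28.9% of all tested genes did. At an adjusted p under 0.05, 4 core members were higher and 12 lower, which is 19.5% of them, against 45.6% of all tested genes (22.1% higher and 23.6% lower).

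Genes of the protein synthesis machinery outside the naming rule were set beside the members. Of 3 such genes on the list, 0 passed the edgeR test, although all 3 had an unadjusted p under 0.05 and all 3 passed with DESeq2 (53.3% and 28.9% of all tested genes). Fau, which encodes a 40S protein fused to a ubiquitin-like domain, and Rack1, a scaffold on the 40S subunit, had log2 fold changes of -0.47 and -0.35 (edgeR adjusted p of 0.0286 and 0.0153), and both were lower in both PD800 libraries. Of 19 translation factors and other proteins whose mRNAs also carry a TOP tract, 0 rose and 1 fell, the poly(A)-binding protein gene Pabpc1 (-0.77), and the median was -0.25. With DESeq2, 0 of the 19 were higher and 8 lower past the test, against 2502 higher and 3036 lower of the 19148 tested genes, so that this count rests on the tool. Of 35 ribosome biogenesis factors, 1 rose (Utp20, 0.61) and 10 fell, among them Ltv1 (-0.93) and Utp14a (-0.87), which is 2.86% higher and 28.6% lower, against 13.1% and 15.4% of all tested genes. Of these 35, 0 differed more than 2-fold with the test passed. Their median log2 fold change was -0.22, beside 0.00 for the core members. The nearest 40 tested genes of Utp20, Ltv1 and Utp14a had medians of 0.78, -0.99 and -0.12. Of 14 genes of the RNA polymerase I machinery, which makes rRNA, 2 rose and 1 fell (21.4%), with a median of 0.06.

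Of 14 regulators of TOR signalling and TOP mRNAs, 0 rose and 4 fell, with a median of 0.00. The 4 are 28.6% of the list, and 15.4% of all tested genes fell. Larp1 went from 268 and 283 CPM to 120 and 119 CPM (log2 fold change -1.20, edgeR adjusted p of 0.00014). Myc, a known activator of ribosome production, went from 37.3 and 40.5 CPM to 11.5 and 10.8 CPM (-1.81, edgeR adjusted p of 7.99e-05). The nearest 40 tested genes of Larp1 and Myc had medians of -0.45 and -0.22. Of 78 mitochondrial ribosomal protein genes, 6 rose and 6 fell, which is 15.4% of them against 28.5% of all tested genes, with a median of 0.03. Mrpl12 (1.20) and Mrps35 (1.01) were the ones past 2-fold, and their nearest 40 tested genes had medians of 1.48 and 0.85. Of 13 p53 targets, 0 rose and 2 fell, Bbc3 (-0.53) and Cdkn1a (-1.45), which is 15.4% of them, the same as the share of all tested genes that fell, with a median of 0.28. With DESeq2 3 of the 13 were higher and 2 lower past the test, so that the count of 0 rests on the tool, and 9 of them had an unadjusted p under 0.05 in edgeR (53.3% of all tested genes).

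The log2 fold changes of the members were correlated with those of their chromosomal neighbours, a comparison chosen after the values had been seen. Across the 77 protein-coding core members, the log2 fold change and the median of the 40 nearest tested genes correlated with a Pearson coefficient of 0.81 and a Spearman coefficient of 0.60. Without Rps12 and Rpl36a the Pearson coefficient was 0.60. The points share all 4 libraries, and some share neighbours, so that no p is given. For 65 of the 77 members the difference from the neighbours was under 0.25 on the log2 scale, and 55 had the sign of their neighbours. The median size of the members' own log2 fold changes was only 0.14, so that a difference under 0.25 does not by itself show resemblance. No values for all tested genes stand beside these counts and coefficients. The 7 members on chromosome 11 had a median of -0.33, and the median of all tested genes of that chromosome was -0.25.

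**Figure D3:**
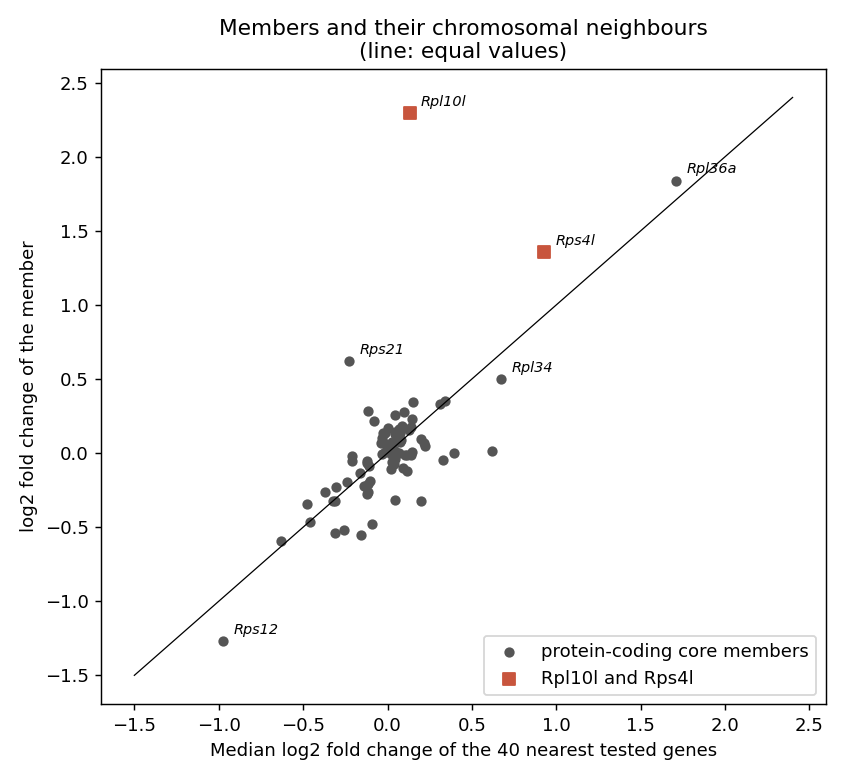
Log2 fold change (PD800 over PD100) of each of the 77 protein-coding core members, and of Rpl10l and Rps4l (squares), on the y axis against the median log2 fold change of the 40 nearest tested genes on the x axis, with the line of equal values. Rpl36a lies 0.13 above the line and Rps12 is off it by -0.29, while Rps21 and Rpl10l lie 0.85 and 2.16 above it.

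Levels between genes can be compared in TPM. The mean TPM of the 77 protein-coding core members ran from 52.4 (Rpl29) to 2015 (Rps24) in PD100 cells, with a median of 819, and from 40.4 (Rpl29) to 1804 (Rpl36a) in PD800 cells, with a median of 706. The highest means over the 4 libraries belonged to Rpl41, which encodes the smallest ribosomal protein, Rps24 and Rpl23a. Rpl41 was at 2095 and 1903 TPM at PD100 and 1674 and 1618 TPM at PD800. Rps24 was at 1985 and 2044 TPM and at 1479 and 1427 TPM. The lowest core levels were those of the processed pseudogenes Rpl32l (2.30 to 4.85 TPM in the 4 libraries), Rpl6l (12.2 to 16.1) and Rps12l1 (19.9 to 64.8). The order of levels was largely kept, with a Spearman coefficient of 0.855 between the PD100 and PD800 means over the 77 members.

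**Figure D4:**
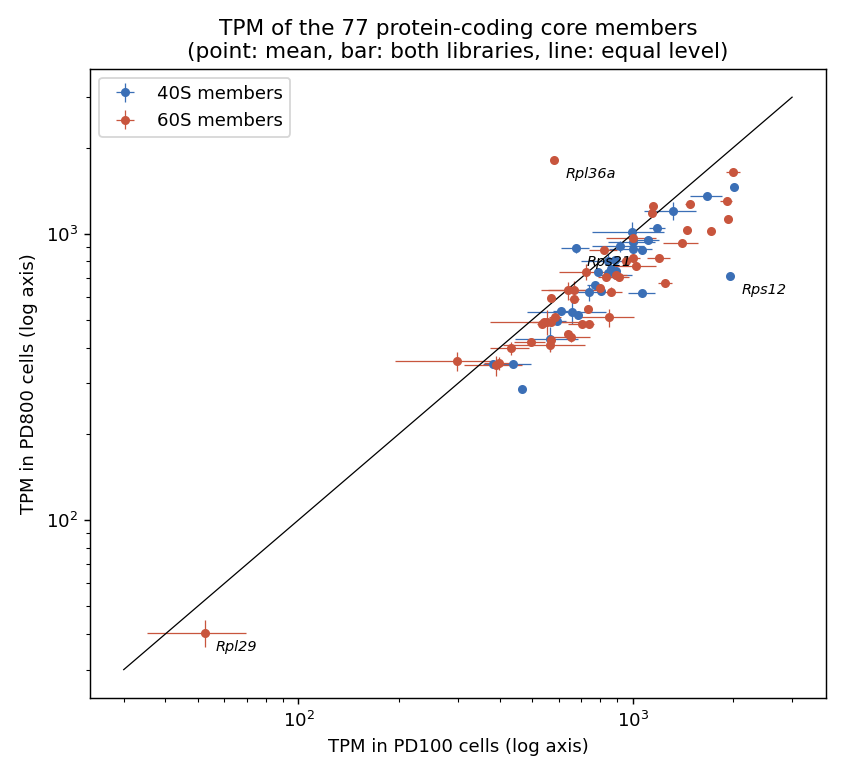
Mean TPM of the 77 protein-coding core members in PD100 cells (x axis) and PD800 cells (y axis), both axes logarithmic, with bars from the lower to the higher library (n = 2 each) and the line of equal levels. Most members lie somewhat below the line, Rpl36a lies far above it and Rps12 far below.

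The direction of the members as a set depended on the scale. In CPM, 41 core members were higher and 41 lower in PD800 cells, and in TPM 9 had a higher and 73 a lower mean. Most genes went in this direction, with 6467 higher and 12590 lower in mean TPM over all 19148 tested genes, but the share of lower ones was larger among core members. On log2(TPM + 1) the median log2 fold change was -0.24 for core members and -0.12 for all tested genes. On log2(TPM + 0.1) the medians were -0.24 and -0.21. Small non-coding RNA genes took 60.3% and 63.7% of all TPM at PD100 and 66.9% and 68.6% at PD800, and TPM has the same total in each library. The core members took 7.15% and 6.77% of all TPM at PD100, against 5.86% and 5.63% at PD800. Within the TPM of protein-coding nuclear genes, the 77 protein-coding core members took 21.0% and 20.9% in PD100 cells and 20.3% in both PD800 libraries.

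In counts, the core members took 5.20% and 5.56% of each PD100 library and 4.73% and 4.85% of each PD800 library, a difference of -0.59 percentage points. Without mitochondrial genes, which took 11.0% to 17.7% of the counts, the shares were 6.15% and 6.24% against 5.75% and 5.77%. In each of these 4 shares, taken over the core members or the protein-coding ones among them, both PD800 libraries lay below both PD100 libraries. With 2 libraries against 2, the exact permutation test (two-sided) gave p = 0.333 for each, the smallest value it can give.

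The PD100 libraries differed from each other more than the PD800 libraries did. For the 77 protein-coding core members, the log2 ratio of replicate 2 to replicate 1 ran from -0.90 (Rpl31) to 0.65 (Rpl37a) in PD100 cells, with an SD of 0.31, and from -0.23 to 0.19 in PD800 cells, with an SD of 0.09. The 953 other protein-coding genes within the TPM range of the members had SDs of 0.33 and 0.10, so that the members were not wider than those genes. Rpl31 was at 491 and 263 CPM in the PD100 libraries and at 448 and 381 CPM in the PD800 libraries. The ratios of PD100 and PD800 correlated across the 77 members with a Pearson coefficient of 0.89, so that members low in replicate 2 of PD100 also tended to be low in replicate 2 of PD800.

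**Figure D5:**
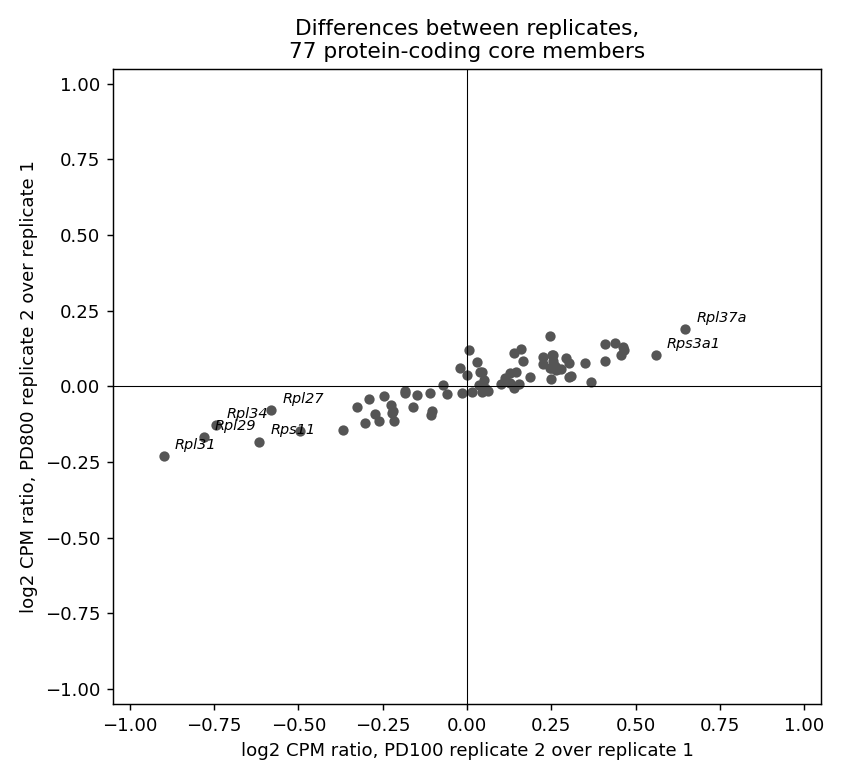
Log2 ratio of CPM, replicate 2 over replicate 1, of the 77 protein-coding core members in PD100 cells (x axis) and PD800 cells (y axis), on equal axes. The points form a flat rising band, wide in PD100 cells (-0.90 to 0.65) and narrow in PD800 cells (-0.23 to 0.19).

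The members share features that the naming rule did not use. The mean transcript length had a median of 657 bases for the 77 protein-coding core members, against 2460 for all tested protein-coding genes. At least 1 annotated snoRNA gene lay within the span of 30 of the 77 (39.0%), against 1.56% of tested protein-coding genes, and together they held 58. The start of the transcript was examined because the TOP tract lies there. Of the 77 members, 57 matched an entry of the RefSeq promoter table (GRCm38.p6). A C followed by 4 or more C or T stood exactly at an annotated start in 13 of the 57 (22.8%), against 3.01% of 27025 genes. Within 25 bases of the start, on the same strand, the same run was found in 84.2% of members and 59.3% of genes.

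The windows below run from 10 bases before to 20 bases from the annotated start, 5′ to 3′, with the run of C and T at the start in capitals. They show members of different roles whose start carries the run, on chr4:86857348-86857377 (Rps6, minus strand), chr11:114668570-114668599 (Rpl38, plus), chr7:141447641-141447670 (Rplp2, plus) and chr2:180257369-180257398 (Rps21, plus).
Rps6: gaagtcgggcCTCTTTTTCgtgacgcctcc
Rpl38: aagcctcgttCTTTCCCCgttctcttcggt
Rplp2: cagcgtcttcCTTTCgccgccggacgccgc
Rps21: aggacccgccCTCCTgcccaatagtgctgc

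The starts of Rps12, Rpl36a and Rpl10l, which are among the members with the largest changes, carry no such run at the annotated first base. Rps4l had no matching entry. The windows lie on chr10:23787190-23787219 (Rps12, minus), chrX:134585644-134585673 (Rpl36a, plus) and chr12:66284382-66284411 (Rpl10l, minus).
Rps12: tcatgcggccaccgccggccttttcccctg
Rpl36a: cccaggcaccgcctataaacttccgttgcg
Rpl10l: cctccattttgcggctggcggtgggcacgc

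Annotated starts can be some bases away from the start used in cells, so the absence of a run at the first base says only that these letters are not there. Members with the run had a median log2 fold change of 0.09 (n = 13, range -0.34 to 0.62) and members without it a median of -0.01 (n = 44, range -1.27 to 1.84), given with no test. Rps21 has a second annotated start without the run. Other letter strings were counted in the 300-base windows on both strands after the values had been seen. CCGGAAG, the core of binding motifs of ETS factors, was found in 42.1% of the 57 members and 9.93% of genes. AAGATGGC, a motif of YY1, was found in 8.77% of members and 3.19% of genes.

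Pseudogene copies limit how surely reads can be assigned to a member. In GENCODE M21 transcripts, 1432 pseudogene copies at 85% identity or more over 50% or more of their length were found for the 77 members. A median of 2.46% of the counts of a member and its copies fell on the copies, and for 12 members the share was over 10%. It was largest for Rpl29 (79.4%) and for Rps3a1 (62.5%, with the near-identical members Rps3a2 and Rps3a3), followed by the stalk gene Rplp0 (46.6%) and by Rpl34 (46.2%). The counts of Rps3a1, Rps3a2 and Rps3a3 summed to 43108 and 48909 at PD100 and to 42896 and 42019 at PD800.

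Adding the copies to their members changed the log2 fold change by at most 0.12 (Rpl29). With the copies added, 3 of the 77 members rose and 5 fell, which is 10.4% of them against 30.1% of all genes in that fit, and the 4 core members past the test without copies were among them. Rpl34 was the one that rose in addition: its log2 fold change was 0.50 ± 0.23 (SE, edgeR adjusted p of 0.127) alone and 0.48 ± 0.08 (SE, edgeR adjusted p of 0.0042) with its copies. Rpl34 alone was at 169 and 101 CPM at PD100 and 199 and 182 CPM at PD800, while its copy Rpl34-ps1 had 3759 and 4637 counts at PD100, against 5448 and 5470 at PD800. Rpl15, Rpl19 and Rpl26 fell in addition.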

How the data were processed

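RNA of 2 PD100 and 2 PD800 libraries of DKO741 cells was analysed, grouped by the population doubling in the titles. The paper describes mRNA sequencing of biological duplicates, and the labels name total RNA. The p-values set the difference between PD100 and PD800 against the spread between these libraries. They do not cover the spread between cell lines or independent survivors. Per the labels and the paper's methods, the authors aligned 101-base read pairs to mm10 with STAR 2.5.3a and ran RSEM 1.3.0 and DESeq2 1.18.1; the annotation release and the strand setting are not given in the sources used here. The deposited files hold the expected count of each gene, which is not scaled for depth, and the TPM that the authors' RSEM run scaled for length and to a fixed total, with mean transcript lengths from the same run.

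Expected counts were rounded and fitted with edgeR 4.0.16 in R 4.3.3 (filterByExpr, minimum count 10, TMM, quasi-likelihood test, Benjamini-Hochberg over 19148 genes); TMM factors were 1.05, 1.03, 0.960 and 0.964. "Rose", "fell" and "past the test" mean an adjusted p under 0.01. Coordinates come from GENCODE M21, in which 53274 of 53379 identifiers were found. Copies were found with blastn 2.17.0. Lists covered paralogs, ribosomal proteins outside the naming rule, the P stalk, Mdm2-binding and X-linked members, TOP mRNAs, ribosome biogenesis, RNA polymerase I, TOR, p53 targets, mitochondrial ribosomal proteins and cell type markers. Members and lists were chosen with earlier results of these data known. Named genes are core members past the test (at most 5 each way), the 3 highest and 3 lowest core members by mean TPM, paralogs and their parents, stalk, Mdm2-binding, X-linked and similar listed members, and listed pathway genes past the test and over 2-fold; others were named after their values were seen. Alternatives were DESeq2 1.42.0, other normalisations and filters, the replicate number as a block, limma 3.58.1 on log2(TPM + 1) and log2(TPM + 0.1), pseudogene counts added, an adjusted p under 0.05, and each library left out. The fit was tested on simulated data. Protein sequences were not analysed here, and some results are not reported here.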

Additional observations from a re-analysis of the deposited data

How the results depend on the processing

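Rps12 (log2 fold change -1.46 to -1.21), Rpl36a (1.63 to 1.94), Rpl10l (1.91 to 2.39) and Rps4l (1.12 to 1.43) passed the test under all 17 alternatives. The number of core members past 2-fold was 2 or 3 throughout, and 0 of the values named above changed direction after having passed. The count of core members past the test was less stable. Against 2 higher and 2 lower, the lower ones numbered 11 by DESeq2, 5 with DESeq2's size factors, 12 with library totals alone, 13 without a filter on low counts, 4 by limma on both TPM scales, 12 at an adjusted p under 0.05 and 5 with copies found by sequence added, an alternative chosen after seeing the data. The higher ones numbered 6 without a filter, 1 on both TPM scales and 4 at an adjusted p under 0.05. Leaving out each library gave 1 to 17 higher and 1 to 22 lower core members. It gave 1257 to 4079 higher and 1567 to 4223 lower genes of all tested, against 2513 and 2943. Higher genes of all tested numbered 3991 without a filter, 712 on log2(TPM + 1), 706 on log2(TPM + 0.1) and 4224 at an adjusted p under 0.05, where 4515 were lower. The median of the core members was -0.11 with library totals and -0.24 on both TPM scales, beside medians of -0.10, -0.12 and -0.21 over all genes. Apart from the construction of each alternative, the cause was not tested.

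Same-numbered libraries are not stated to share a day or culture, and their deviations from the group means correlated at 0.265 across genes. Across the 77 protein-coding core members, the replicate ratios of PD100 and PD800 correlated more strongly, with a Pearson coefficient of 0.89. When replicate number was added as a block, 6 core members were higher and 11 lower (20.7%), against 41.7% of all genes, with 3854 genes higher. Rpl26, Rpl19, Rps16, Rps24 and Rpl21, just outside the threshold without the block, passed with it (edgeR adjusted p from 0.00039 to 0.00652). Of the 3 stalk genes and 4 Mdm2-binding members, Rplp2, Rpl23 and Rps27a also passed with the block (edgeR adjusted p of 0.0052, 0.00683 and 0.00119). With 2 libraries per group, outliers within a group could not be tested, and depth limited Rpl3l most.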

Other observations

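Of the 90 members, 9 lie within 5 Mb of the last annotated base of their chromosome, and 2 of these (22.2%) passed edgeR's test, against 28.5% of all tested genes. They include Rps21 (log2 fold change 0.62) and Rps4l (1.36), which rose, and Rps26 (-0.02), Rpl41 (-0.06), Rpl22 (0.01), Rpsa (-0.01), Rpl14 (0.14), Rpl21 (0.33) and Rplp2 (0.35), which did not pass the test. Rps26 and Rpl41 lie 1.97 and 2.04 Mb from the end of chromosome 10, about as close as Rps21 to the end of chromosome 2. These genes were picked by position after the values of Rps21 and Rps4l had been seen.

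Chromosome 7 holds 14 of the 77 protein-coding core members, the most of any chromosome, and their log2 fold changes ran from -0.48 to 0.35 with a median of -0.02, while all tested genes of the chromosome had a median of 0.16. Transcript length was weakly related to the change across the 77 members (Spearman coefficient -0.27), and so was mean TPM (-0.13), both as descriptions of genes measured in the same 4 libraries.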
